A study of Mus musculus with 5 samples.

Results

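Hepatocytes of bezafibrate-treated mice in the high gate of a fatty acid oxidation probe were compared here with those in the negative gate. These are the outer gates of the 3 labelled with bezafibrate. The members were 2 libraries of the 5 in the series, chosen by their labels. A gene was analysed if it averaged at least 5 normalised read counts across the 5 libraries, as 8981 of 13966 genes did. Hepatocytes of ICR mice, an outbred stock, had been separated by FACS (fluorescence-activated cell sorting) after the animals received the probe. The bezafibrate groups were a negative gate, a positive gate and a gate labelled high positive, called high below. The control groups, from livers with no bezafibrate in their labels, were a negative and a positive gate. All 5 groups share the stock, the probe and the sort, and each has 1 library. The sources used here do not state the dose, the length of treatment, the age or number of mice, or whether gates were sorted from the same liver. Differences below therefore describe 2 libraries, have no replicate check and carry no p-value.

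Fatty acids are broken down in the mitochondria and peroxisomes of hepatocytes by beta-oxidation, and at the endoplasmic reticulum Cyp4 enzymes oxidise them from the other end of the chain, which is called omega-oxidation. Electrons from mitochondrial beta-oxidation enter the respiratory chain through electron transfer flavoprotein and NADH. Bezafibrate activates the peroxisome proliferator-activated receptors (PPARs), of which PPARalpha is the main form in hepatocytes and raises transcription of genes of all these steps in rodents. A probe of oxidation reports activity in the cell, whereas the libraries report RNA.

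Values are normalised read counts per library, as deposited, and unless another order is named they are given for the negative, positive and high gates of bezafibrate mice. Differences are high minus negative on the log2(value + 1) scale, which understates those of low genes. Folds are plain ratios of high to negative with a 95% exact (Clopper-Pearson) interval in parentheses, which covers counting error only. The libraries held 7146578 reads in the negative, 5993366 in the positive and 6831281 in the high gate, and the control libraries 5454866 and 5056884. Hepatocyte markers summed to 130705, 94151 and 104475, and all 12 were analysed. The RNA make-up of the libraries was not the same. The share of Rn45s, which codes for the precursor of ribosomal RNA, was 10.5% of reads in the negative, 18.5% in the positive and 13.5% in the high gate, and in the control gates 36.3% and 34.8%. Genes with short transcripts were lower on average in the high gate: the median difference was -0.10 in the fifth of genes whose longest annotated transcript had 238 to 2097 bases, and 0.03 in the fifth from 5511 bases up.

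Single genes differed little between the outer gates. Of 8981 genes, 10 were at least 2-fold higher in the high gate, 0.111%, and 14 at least 2-fold lower, 0.156%. A smaller threshold, 0.32 on the log2 scale, is used below to count members of lists. By it 876 genes were higher, 9.75%, and 1129 lower, 12.6%. The higher genes were 43.7% of those past 0.32. With column totals made equal they were 62.3%, and with totals made equal without Rn45s 74.4%. At 2-fold the share was 41.7%, 53.8% and 64.0% in the same order. The median over all genes was -0.02 as deposited and 0.05 and 0.09 under these scalings, so medians of gene lists are given below relative to it. The high gate was the highest of the 3 bezafibrate gates for 2368 genes, the lowest for 2648, and between the others for 3964. Of 40 gene lists with at least 5 members analysed, 30 had a median below that of all genes and 10 above it. Some genes stand in more than 1 list, such as Cpt2 and Trf, so lists are not separate results.

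**Figure D1:**
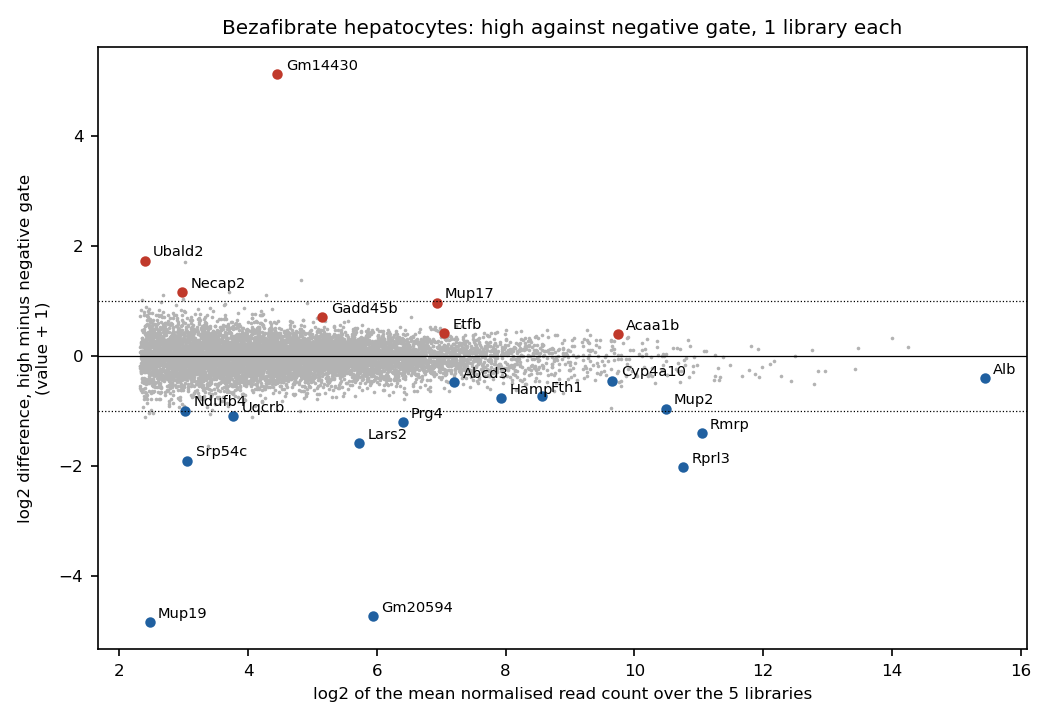
Each point is a gene, with the log2 of its mean normalised read count over the 5 libraries on the x axis and its log2 difference, bezafibrate high minus negative gate, on the y axis; Rn45s is outside the plot. Dotted lines mark 2-fold. Most genes lie within 2-fold, and the points outside it are mostly low genes, genes with near copies (Mup19, Srp54c) and small RNAs (Rprl3, Rmrp). The provisional gene Gm14430 also lies outside it.

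The mitochondrial beta-oxidation list lay slightly below all genes, and few of its members stood out. The median of 25 members analysed, of 26 listed, was -0.11 relative to all genes, with 7 members above and 18 below the all-gene median. Past 0.32 on the log2 scale, 1 member was higher and 4 were lower, and the latter, 16.0% of the list, stand beside 12.6% of all genes. In bulk RNA, fewer cells of a kind and less RNA per cell cannot be told apart, here and below. Acadm, the medium-chain acyl-CoA dehydrogenase, had 186.1, 148.9 and 143.1. Hsd17b10, a dehydrogenase of branched-chain fatty acid breakdown, had 35.6, 22.5 and 26.4 and was 0.741-fold (0.614 to 0.894). Etfdh, which passes electrons from flavoprotein to ubiquinone, had 122.0, 83.2 and 96.1, and the carnitine carrier Slc25a20 had 42.4, 32.9 and 33.3. In all 4 the negative gate was the highest of the 3. Cpt1a, which commits long-chain fatty acids to mitochondria, had 366.2, 326.3 and 322.7 and differed by -0.18. Cpt2, its partner on the inner membrane, had 62.8, 39.7 and 51.8, with the high gate between the others.

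Other members ran the other way. Etfb, a subunit of electron transfer flavoprotein (chromosome 7, 43444083 to 43457800), had 125.4, 152.4 and 166.8 and 105.9 and 107.8 in the control negative and positive gates, so it was highest in the high gate of all 5 libraries. It was 1.33-fold (1.22 to 1.45) in high against negative, though 68.0% of the 31-base words of its longest transcript also occur in the annotated gene Gm45233. Etfa, the other subunit, was level with 86.5, 83.2 and 86.7. The thiolase Acaa2 had 409.5, 342.5 and 441.8, and Acadvl, the very-long-chain acyl-CoA dehydrogenase, had 222.9, 200.3 and 240.6, both within 0.32. Although the high gate was below the negative gate for most members, it was above both control libraries for 21 of 25, a difference that cannot be told apart from one between mice.

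Peroxisomal beta-oxidation genes also had a median slightly below that of all genes, while the thiolases Acaa1a and Acaa1b were higher. The median of 26 members analysed, of 28 listed, was -0.15 relative to all genes, with 9 above and 17 below. Past 0.32, 3 were higher and 2 lower, 11.5% and 7.69% of the list, beside 9.75% and 12.6% of all genes. The counts thus did not lean to the lower side. Abcd3, a transporter of fatty acids into the peroxisome (chromosome 3, 121758774 to 121815302), had 220.2, 162.8 and 158.7 and was 0.721-fold (0.668 to 0.777). Catalase, Cat, which removes the hydrogen peroxide made by the pathway, had 2333, 1719 and 1845 and was 0.791-fold (0.773 to 0.808). Ehhadh, the bifunctional enzyme of the middle steps, had 1813, 1268 and 1535 in the bezafibrate gates but 72.9 and 87.5 in the control gates. For Abcd3, Cat and Ehhadh the negative gate had the highest value of the 5 libraries. In contrast Acaa1a and Acaa1b, thiolases of the last step, were higher. Acaa1a (chromosome 9, 119339676 to 119350299) had 90.8, 125.8 and 131.2 and was 1.45-fold (1.31 to 1.60). In the control negative and positive gates Acaa1a had 125.65 and 127.4, so the bezafibrate negative gate was the lowest of the 5 libraries. Acaa1b had 774.9, 952.8 and 1021 and was 1.32-fold (1.27 to 1.36). These copies share 19.9% of the words of Acaa1a and 45.7% of those of Acaa1b. Summed over both, which does not depend on how reads were divided between them, the values were 865.6, 1079 and 1152, 1.33-fold (1.29 to 1.37). The control negative and positive gates summed to 840.1 and 942.3. Scp2, the most abundant member per kilobase, was not higher, with 2109, 1809 and 2055, 0.974-fold (0.953 to 0.996). The thioesterase Acot4, with 12.00, 14.2 and 15.99, was the third member past 0.32 higher, and Abcd3 and Cat were the members past it lower.

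Omega-oxidation genes were lower as well. The median of 13 members was -0.17 relative to all genes, with 3 above and 10 below. Past 0.32, 1 was higher and 5 lower, 7.69% and 38.5% of the list, beside 9.75% and 12.6% of all genes. Cyp4a10, a fatty acid omega-hydroxylase that bezafibrate raises strongly in rodents (chromosome 4, 115518264 to 115533649), had 1584, 1048 and 1160.1 in the bezafibrate gates and 117.0 and 131.3 in the control negative and positive gates. It was 0.732-fold (0.712 to 0.753) in high against negative. Its sum with the copies Cyp4a31 and Cyp4a32 was 0.756-fold (0.737 to 0.776). Cyp4a14, its neighbour on the chromosome, had 2366, 1873 and 1986 and was 0.839-fold (0.821 to 0.858). Aldh3a2, the fatty aldehyde dehydrogenase, had 75.6, 66.4 and 56.2. Cyp4f16 had 7.33, 9.61 and 9.99 and an interval that included 1, at 1.36-fold (0.9497 to 1.97).

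Among 22 PPARalpha targets outside beta-oxidation, of 30 listed, members were spread to both sides. The median was -0.08 relative to all genes. It was -0.17 over 27 genes with no filter on low values and -0.13 over 13 with a mean of at least 20. Past 0.32, 4 members were higher and 5 lower, 18.2% and 22.7% of the list, beside 9.75% and 12.6% of all genes. Fabp1, the liver fatty acid binding protein (chromosome 6, 71199827 to 71205023), had 1419.5, 1114 and 964.4 and was 0.679-fold (0.659 to 0.7). The fatty acid transporter Cd36 had 11.5, 6.15 and 7.86 and pantetheinase Vnn1 17.5, 12.6 and 12.3. All 3 were highest in the negative gate. The lipid droplet coat protein Plin4 (chromosome 17, 56100591 to 56109803) was higher instead, with 69.7, 100.4 and 100.9, 1.45-fold (1.29 to 1.62), and Plin5, the coat protein that tethers droplets to mitochondria, had 60.4, 82.9 and 79.9. Plin2, the most general of these coats, was level with 105.7, 83.7 and 102.7. For Plin4 and Plin5 the positive and high gates were close to each other and the negative gate stood below both. Pdk4, the kinase that shuts pyruvate out of the citric acid cycle, had 3.87, 4.89 and 6.395, 1.65-fold (1.02 to 2.72), at a level where few reads were counted. The hormone gene Fgf21 had 2.93, 4.57 and 4.66, with an interval that included 1 (1.59-fold (0.907 to 2.85)). In the control negative and positive gates Pdk4 had 8.62 and 10.99 and Fgf21 11.5 and 12.1, above every bezafibrate gate.

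The receptors themselves differed little. In a list of 16 PPARs, retinoid X receptors and co-regulators, the median was 0.03 relative to all genes. Of these, 0 were past 0.32 in either direction, beside 9.75% of all genes higher and 12.6% lower. Ppara had 608.6, 657.9 and 655.8. Ppargc1a, a co-activator of mitochondrial genes, had 32.9, 33.6 and 27.7, whereas its relative Ppargc1b had 46.7, 54.4 and 55.96. Lpin1, a phosphatidate phosphatase that also acts as a co-activator, had 594.9, 754.2 and 719.0, against 2256 and 2203 in the control gates. Of 18 peroxins, which build peroxisomes, 11 were above and 7 below the all-gene median. The import receptor Pex5 was the highest with 76.9, 85.9 and 101.5, 1.32-fold (1.18 to 1.47), and Pex3, needed for new peroxisomal membrane, the lowest with 13.2, 11.7 and 8.26, 0.626-fold (0.448 to 0.868).

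**Figure D2:**
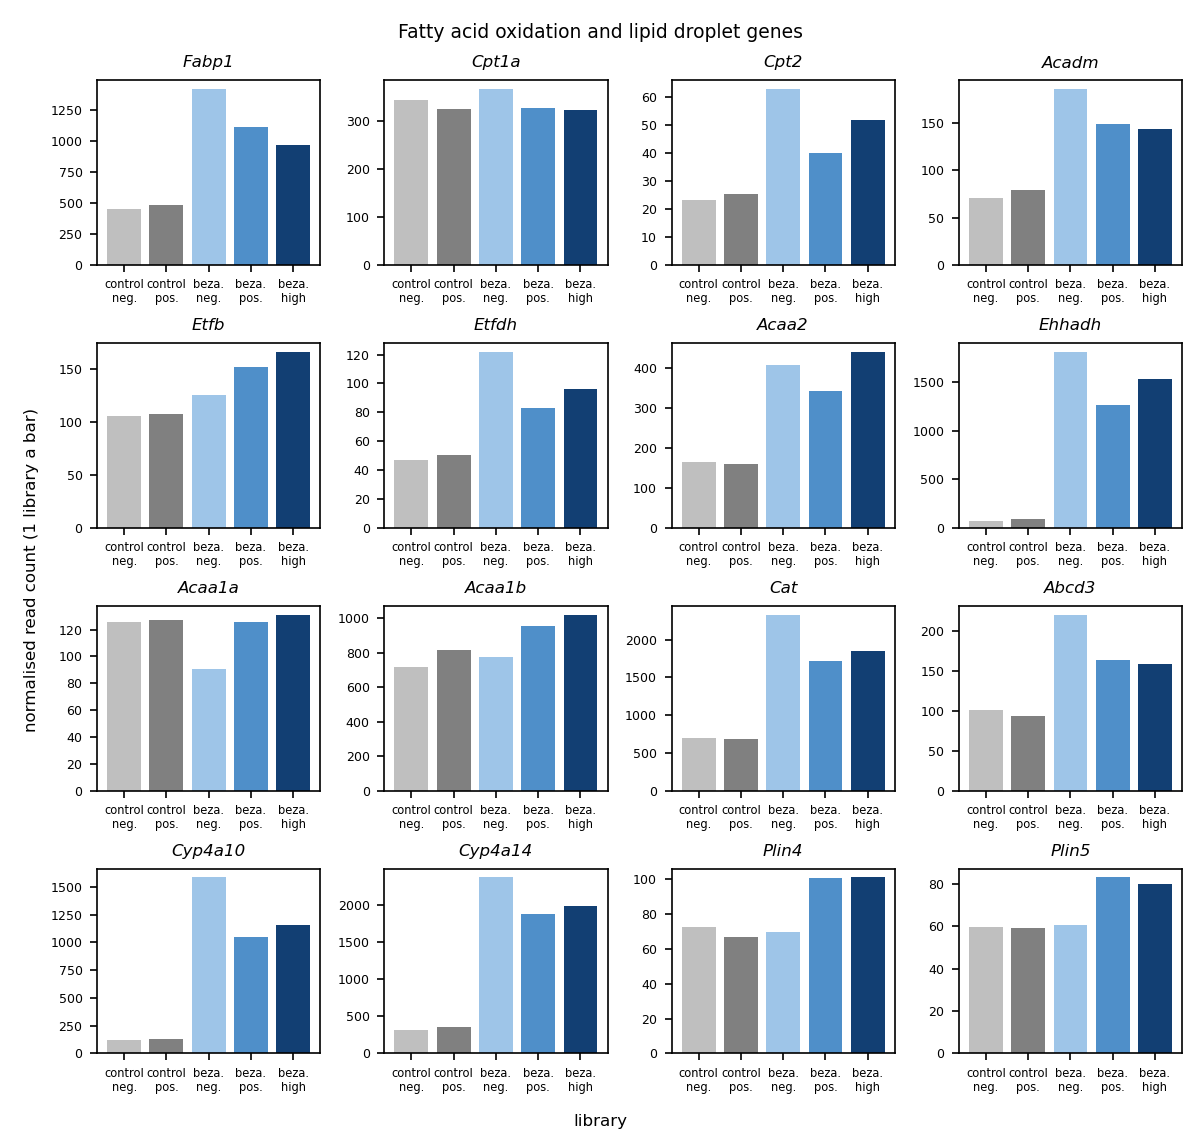
Normalised read counts (y axis, linear from 0, a scale for each gene) of 16 genes of fatty acid oxidation and lipid droplets in the 5 libraries, 1 library a bar. In most panels the bezafibrate negative gate is the highest bar, as for Cyp4a10 at 1584 against 1160 in the high gate; Etfb, Acaa1b, Plin4 and Plin5 instead stand lower in that gate than in the other bezafibrate gates.

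Of the mitochondrial lists, the nuclear-encoded respiratory chain lay farthest below all genes. All 76 listed members were analysed, and their median was -0.28 relative to all genes, with 16 above and 60 below it. Past 0.32, 0 members were higher and 34 were lower, 44.7% of the list, beside 12.6% of all genes. The negative gate was the highest of the 3 bezafibrate gates for 59 members. Each complex took part. The median relative to all genes was -0.29 for 36 subunits of complex I, -0.17 for 4 of complex II, -0.13 for 9 of complex III, -0.26 for 11 of complex IV and -0.30 for 15 of ATP synthase. Summed values of ATP synthase genes went from 1903 in the negative to 1447 in the positive and 1589 in the high gate.

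The lowest members were small subunits at low levels. Uqcrb of complex III (chromosome 13, 66900617 to 66905378) had 28.7, 20.2 and 12.9 and was 0.451-fold (0.351 to 0.576), with 30.5% of its words in other genes. Atp5k of ATP synthase had 18.4, 14.5 and 8.26 and was 0.449-fold (0.327 to 0.6102), and Ndufb4 of complex I had 17.5, 9.61 and 8.26. In these 3 the order was negative, positive, high from top to bottom. Of larger subunits, Atp5b, the catalytic beta subunit of ATP synthase, had 548.8, 396.1 and 467.5, 0.852-fold (0.814 to 0.891). Ndufv1, which binds NADH in complex I, was the highest member with 72.9, 70.5 and 88.6, 1.22-fold (1.08 to 1.36). Uqcrc1, a core protein of complex III, was level with 142.6, 125.5 and 144.7. The list holds many short transcripts, and relative to the median expected from genes of the same lengths its median was -0.21. In the high gate 75 of 76 members were still above both control libraries.

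Promoter sequences were taken from RefSeq windows of GRCm38.p6, which were held for 63 of the 76 members. The 250 bases before the RefSeq start are shown for Atp5k and Ndufb4, among the lowest members, and for Uqcrc1, which was level. Low and level members can thus be set side by side. Capitals mark the 50 bases nearest that start. The GENCODE annotation, used for the other coordinates here, starts Atp5k at 108434448, inside the capitals shown for it. The share of G and C was 57.6% in Atp5k, 63.2% in Ndufb4 and 54.0% in Uqcrc1, beside a median of 56.4% over windows of the list and 52.4% over all windows.
Atp5k, chr5:108434400-108434649, minus strand: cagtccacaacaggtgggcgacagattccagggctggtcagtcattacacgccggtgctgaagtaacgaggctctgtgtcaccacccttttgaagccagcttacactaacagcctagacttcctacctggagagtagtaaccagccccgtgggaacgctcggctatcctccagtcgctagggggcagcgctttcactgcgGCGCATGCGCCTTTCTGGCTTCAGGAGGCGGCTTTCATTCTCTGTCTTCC
Ndufb4, chr16:37654369-37654618, minus strand: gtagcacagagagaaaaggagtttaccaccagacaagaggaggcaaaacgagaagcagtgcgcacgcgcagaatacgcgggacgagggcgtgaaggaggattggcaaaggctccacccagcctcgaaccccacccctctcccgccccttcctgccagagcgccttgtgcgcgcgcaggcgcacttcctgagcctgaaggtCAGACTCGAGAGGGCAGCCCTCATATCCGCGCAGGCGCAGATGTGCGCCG
Uqcrc1, chr9:108936398-108936647, plus strand: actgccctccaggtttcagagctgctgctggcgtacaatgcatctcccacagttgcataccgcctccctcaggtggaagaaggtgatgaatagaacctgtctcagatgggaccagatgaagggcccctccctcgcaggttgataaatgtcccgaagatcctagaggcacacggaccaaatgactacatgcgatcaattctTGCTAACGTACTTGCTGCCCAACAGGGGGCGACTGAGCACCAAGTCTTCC
No signal was measured at these promoters, and the values above are of RNA.

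Genes of translation followed in part. Cytosolic ribosomal proteins, 76 analysed, had a median of -0.24 relative to all genes, with 12 above and 64 below. Past 0.32, 0 were higher and 27 lower, the latter 35.5% of the list beside 12.6% of all genes. Rpl35a was the lowest with 15.3, 9.93 and 8.66, and Rplp2 the highest with 43.1, 53.9 and 53.03; reads of these genes can be shared with processed pseudogenes. Mitochondrial ribosomal proteins, 61 analysed of 74, had -0.14, which became -0.02 when only genes with a mean of at least 20 were kept. Mitochondrial aminoacyl-tRNA synthetases lay on the other side at 0.19, with 11 of 15 members above the all-gene median. Yars2, the tyrosine enzyme, had 7.46, 7.72 and 12.8, 1.71-fold (1.22 to 2.43), and Nars2, the asparagine enzyme, 16.7, 23.6 and 22.4. Lars2, the leucine enzyme (chromosome 9, 123366927 to 123462666), went the opposite way with 130.6, 25.2 and 42.6, 0.326-fold (0.287 to 0.371), and in the control gates it had 38.2 and 28.7. Its value in the bezafibrate negative gate stood above all other libraries. Gm20594, a provisional gene that shares 10.02% of its words with the mitochondrial ribosomal RNA mt-Rnr2, showed the same outlying library with 188.8, 20.96 and 6.13 and was named after its values were seen. The 19 genes of the citric acid cycle had -0.19, with 1 past 0.32 lower, 5.26% of the list beside 12.6% of all genes.

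**Figure D3:**
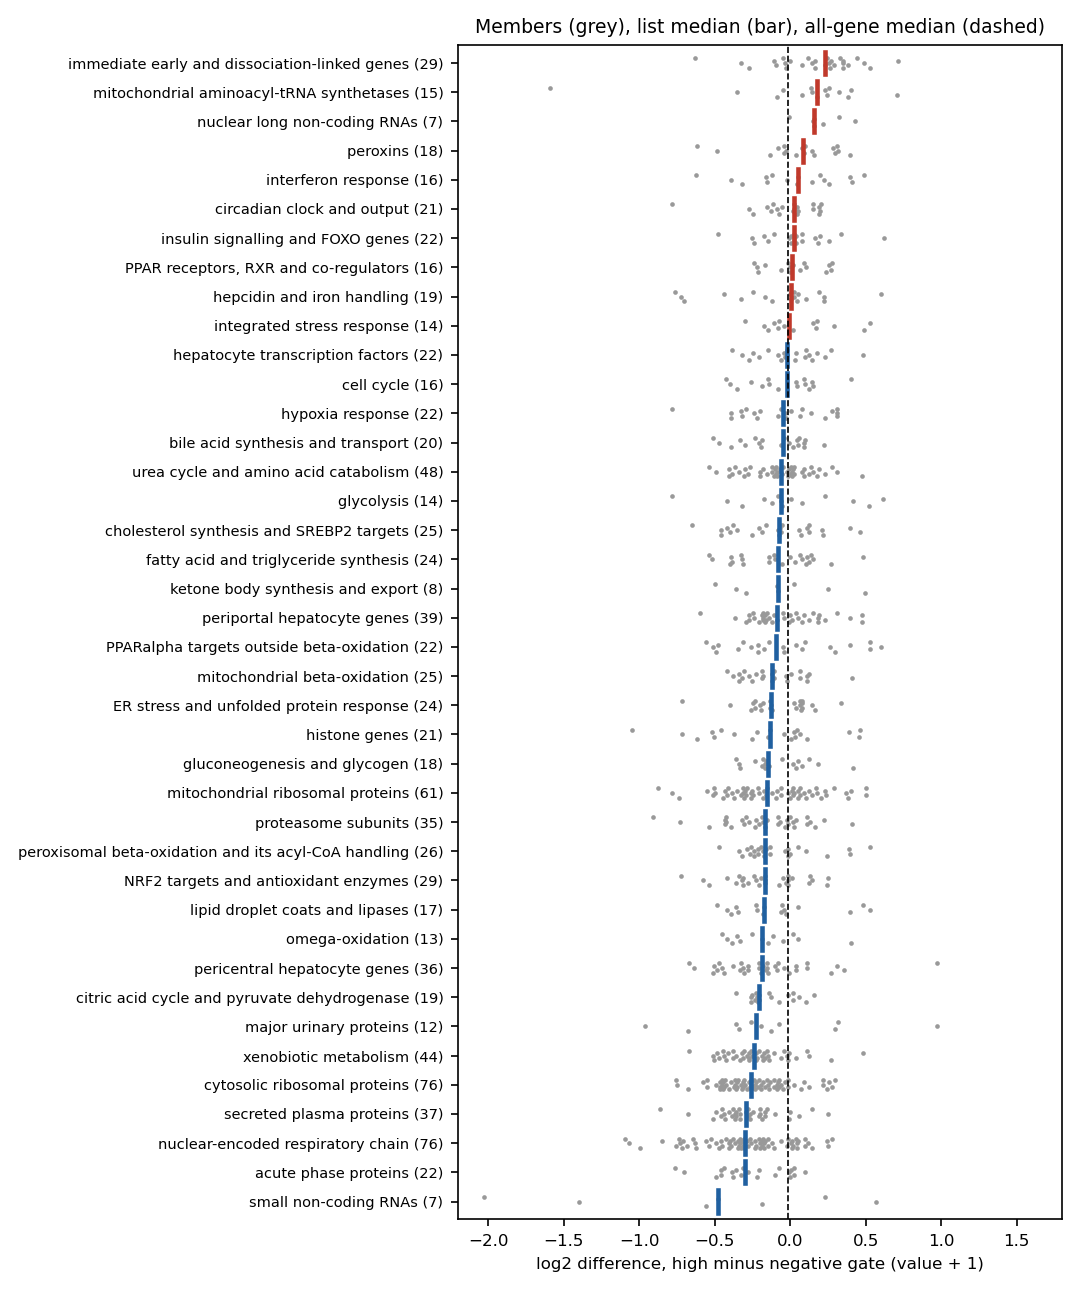
Gene lists with at least 5 members analysed (number in parentheses), ordered by median; the x axis is the log2 difference, bezafibrate high minus negative gate. Grey points are member genes, bars are list medians and the dashed line is the all-gene median of -0.02. Immediate early genes lie farthest to the right, and small non-coding RNAs, acute phase, respiratory chain and secreted protein genes farthest to the left.

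Secreted proteins, the main export of hepatocytes, were lower in the high gate. Their median was -0.28 relative to all genes, with 5 of 37 members above it and 32 below. Of the list, 18 were past 0.32 lower with 0 higher. The lower ones were 48.6%, beside 12.6% of all genes. Albumin, Alb (chromosome 5, 90460897 to 90476602), had 72188, 48208 and 54530.1 and was 0.755-fold (0.752 to 0.758). Apob, the backbone of very-low-density lipoprotein, had 11648, 7561 and 8185. Hrg, histidine-rich glycoprotein, had 821.7, 534.8 and 514.7, 0.626-fold (0.602 to 0.652). For these 3 the negative gate was highest, and the positive and high gates differed less from each other than from it. Apolipoprotein E, Apoe, was an exception with 10806, 10789 and 11933. The 5 Serpina1 genes, which code for alpha-1-antitrypsin and have near-identical copies, summed to 17076, 12535 and 14278, 0.836-fold (0.829 to 0.843), although Serpina1d alone was higher with 614.2, 597.0 and 729.4.

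Acute phase genes were lower as a list, whereas iron genes were not and held single members with large differences. The 22 acute phase genes had a median of -0.28 relative to all genes. It was -0.18 over all 28 listed with no filter on low values. Past 0.32, 0 were higher and 10 lower, the latter 45.5% of the list. The 19 iron genes analysed had a median of 0.02, with 11 above and 8 below the all-gene median. Of these, 1 was past 0.32 higher and 5 lower, 5.26% and 26.3%. The shares over all genes were 9.75% higher and 12.6% lower. Hepcidin, Hamp (chromosome 7, 30942368 to 30944032), the hormone that limits iron export, had 454.2, 344.7 and 267.4, and its copy Hamp2 had 140.8, 100.1 and 86.1. Their sum was 0.594-fold (0.566 to 0.624) in high against negative and was 594.9, 444.8 and 353.5, with 99.2 and 90.3 in the control gates. Fth1, the ferritin heavy chain (chromosome 19, 9980598 to 9985098), had 511.9, 364.4 and 309.0 and was 0.604-fold (0.573 to 0.636). The light chain Ftl1 had 1976, 1687 and 1757, with reads that can be shared with pseudogenes. In all of these the negative gate was highest. The bone morphogenetic protein target Id1 was the iron gene past 0.32 higher, with 7.998, 9.77 and 12.7, and the transferrin receptor Tfrc had 33.3, 45.1 and 39.2. Haptoglobin, Hp, was level at 1932, 1745 and 1969. B2m, the light chain of class I molecules, had 513.9, 338.2 and 332.7, 0.647-fold (0.615 to 0.681).

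Genes zonated along the liver lobule had medians below that of all genes for both zones. Pericentral genes, expressed around the central vein, had a median of -0.17 relative to all genes over 36 members, with 9 above and 27 below. Between the control gates the same list had 0.16, positive minus negative. Periportal genes, expressed around the portal tract, had -0.07 over 39 members, with 17 above and 22 below, and -0.11 between the control gates. Cyp2e1 had 1608, 1293 and 1274, Cyp2c29 491.6, 366.9 and 345.5 and Cyp3a11 2779, 1891 and 2006, all cytochromes P450 of pericentral cells that were highest in the negative of the bezafibrate gates. Glul, the glutamine synthetase of the innermost pericentral cells, was level with 109.8, 111.4 and 103.4, and Axin2, a Wnt target of the same zone, had 4.67, 5.52 and 6.26. Of periportal genes, Sds, serine dehydratase, had 300.5, 435.8 and 418.1, 1.39-fold (1.32 to 1.47), the asparaginase Aspg 389.5, 605.2 and 541.6, and Ass1, of the urea cycle, 1031, 1668 and 1276. These 3 were lowest in the negative of the bezafibrate gates. The urea cycle entry enzyme Cps1 was level with 6141, 5562 and 6134. Other periportal genes lay on the lower side: transferrin, Trf, and Serpina1c, the most abundant members per kilobase, had 13959, 9713 and 11775 and 7299.6, 5189.5 and 5675, and the protease Ctsc, the lowest member, had 43.1, 28.2 and 28.1. Past 0.32, 3 periportal members were higher and 2 lower, 7.69% and 5.13% of the list, beside 9.75% and 12.6% of all genes. Sds and Aspg were among the higher ones, and Ass1 was within 0.32.

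Xenobiotic metabolism, 44 genes, had a median of -0.22 relative to all genes, with 37 below it. Past 0.32, 13 were lower, 29.5% of the list beside 12.6% of all genes. Nr1i3, the nuclear receptor CAR that drives many genes of the list, was the 1 member past 0.32 higher. It had 62.1, 91.3 and 87.1, 1.40-fold (1.24 to 1.58). Of 18 genes of gluconeogenesis and glycogen, 7 were above and 11 below the all-gene median, which gave a list median of -0.13. Past 0.32, 1 was higher and 3 lower, 5.56% and 16.7% of the list, beside 9.75% and 12.6% of all genes. The lower ones were Ugp2, which makes UDP-glucose for glycogen, with 101.4, 74.7 and 78.7, the aspartate aminotransferase Got2 with 431.9, 316.2 and 340.6 and the glucose transporter Slc2a2 with 265.5, 191.7 and 211.1. Of 14 glycolysis genes, 3 were past 0.32 higher and 2 lower, 21.4% and 14.3%, beside 9.75% and 12.6% of all genes. Pfkl, liver phosphofructokinase, had 20.9, 29.8 and 32.6. Gapdh had 769.1, 542.8 and 575.1 and was 0.748-fold (0.719 to 0.778), with reads that can be shared with pseudogenes. Pck1 and G6pc, of gluconeogenesis, were within 0.32 at 3159, 3396 and 3595 and 945.4, 1034 and 968.9. Scd1, the stearoyl-CoA desaturase, had 6374, 4677 and 4879.8, while Pnpla3, a lipid droplet enzyme induced with lipogenesis, had 31.7, 38.5 and 44.8, 1.41-fold (1.19 to 1.67).

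Immediate early genes, which respond within minutes to stimuli and to tissue dissociation, lay farthest above all genes of the 40 lists. The median of 29 members analysed, of 34 listed, was 0.25 above that of all genes, with 21 above and 8 below. Past 0.32, 9 were higher and 2 lower, 31.03% and 6.90% of the list, beside 9.75% and 12.6% of all genes. Gadd45b, a stress-induced regulator (chromosome 10, 80930073 to 80932204), had 29.5, 44.9 and 48.9, 1.66-fold (1.40 to 1.97). The transcription factors Jun, Fos and Atf3 had 576.4, 751.2 and 735.6, 118.5, 152.1 and 155.0 and 46.3, 64.1 and 65.4. Ier2 had 221.8, 307.2 and 283.1 and Socs3, the feedback inhibitor of cytokine signalling, 16.4, 22.4 and 22.7. In all 6 the positive and high gates were close together and above the negative gate. Egr1 was level with 611.2, 688.5 and 591.2. The 8 below the all-gene median included the chaperones Hsp90aa1, with 73.05, 53.1 and 46.9, Hspa1b, with 11.5, 8.67 and 8.93, and Hsph1, with 12.8, 9.77 and 10.4. In the high gate 23 of 29 members were below both control libraries; Jun, for example, had 1333 and 1403 in the control gates.

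**Figure D4:**
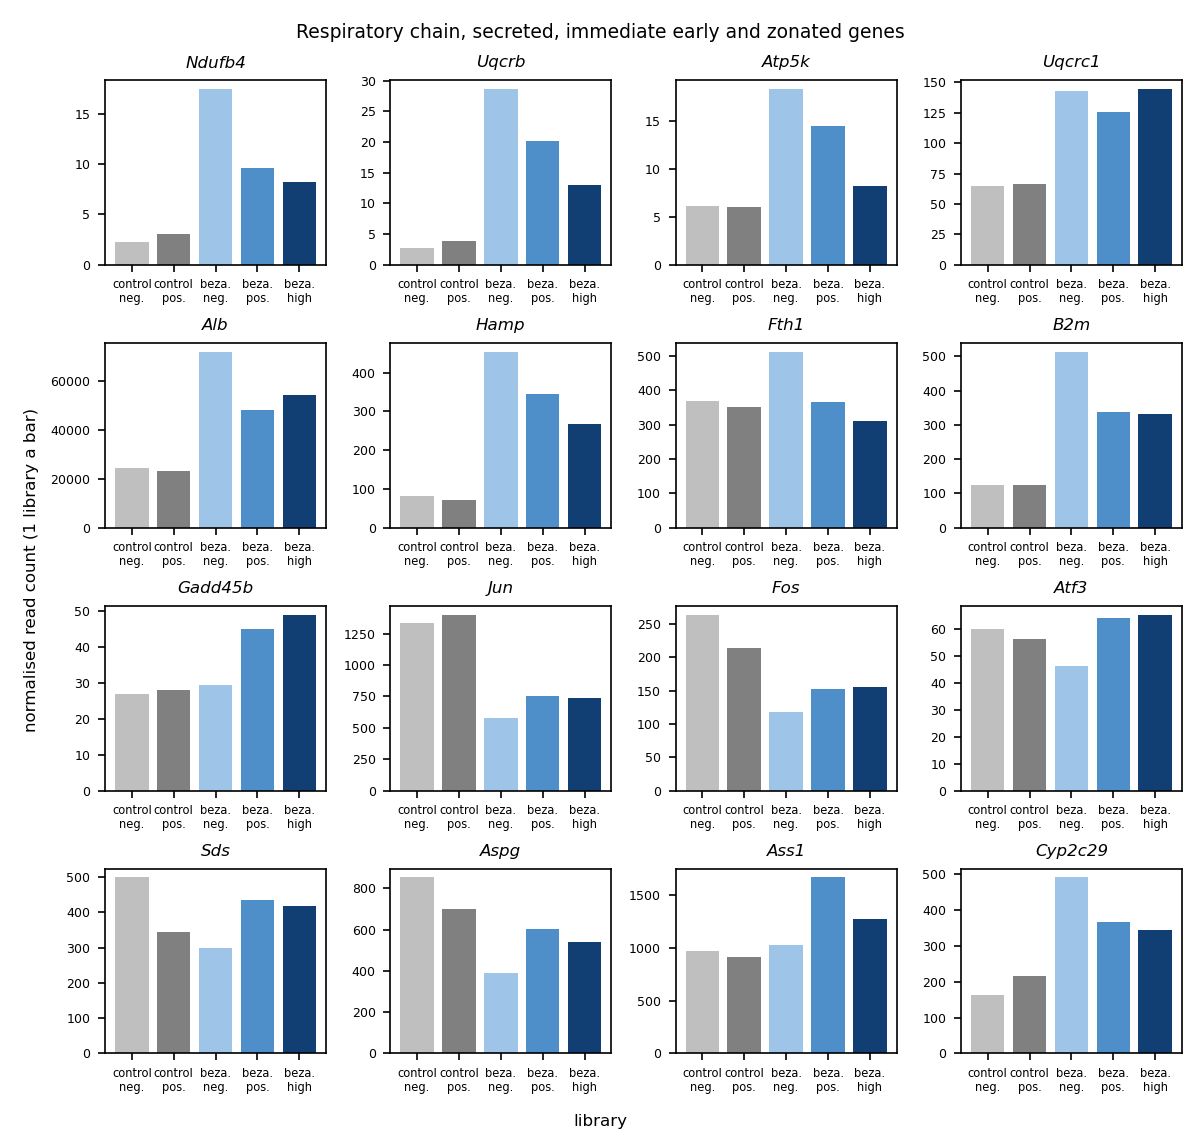
Normalised read counts (y axis, linear from 0, a scale for each gene) of 16 genes of the respiratory chain, secreted and iron proteins, immediate early genes and zonated genes in the 5 libraries, 1 library a bar. Ndufb4, Uqcrb, Alb, Hamp, Fth1, B2m and Cyp2c29 stand highest in the bezafibrate negative gate, while Gadd45b, Sds, Aspg and Ass1 stand lower there than in the positive and high gates.

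RNAs that stay in the nucleus and small RNAs had medians on opposite sides of all genes. All 7 nuclear long non-coding RNAs analysed were above the all-gene median, though only Firre was past 0.32 and Tug1 was level with 51.9, 50.8 and 51.6. Neat1, the scaffold of paraspeckles, had 11978, 15386 and 14966, Malat1 15406, 19155 and 17208 and Firre 118.5, 176.7 and 160.0. All 3 were highest in the positive gate, as was Rn45s. The list of small RNAs had 25 members, of which 7 were analysed. Past 0.32, 4 were lower and 1 higher, 57.1% and 14.3% of those analysed, beside 12.6% and 9.75% of all genes. Rprl3, an RNA of the RNase P family (chromosome 8, 3803069 to 3803358), had 2391, 951.3 and 585.9 and was 0.245-fold (0.237 to 0.253), the largest difference among abundant genes. Rmrp, the RNA of the related RNase MRP, had 2123, 1160 and 804, 0.379-fold (0.368 to 0.390), and was named after its values were seen. In the control gates Rprl3 had 2515 and 2244 and Rmrp 3536 and 2962, so that only the negative bezafibrate gate was near their range for Rprl3. Summed over Rpph1, Rprl2 and Rprl3 the values were 2656, 1195 and 774.4. The telomerase RNA Terc was the member past 0.32 higher, with 19.6, 34.2 and 29.6. Rprl3 is 290 bases long and Terc 423, and the part of RNA length in these values was not tested.

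Of the genes past 2-fold, most were low or had near copies. Ubald2 (chromosome 11, 116434094 to 116439077) had 1.87, 5.52 and 8.53 in the bezafibrate gates and 2.87 and 7.55 in the control gates, 4.57-fold (2.54 to 8.82), and 29.7% of its words also occur in Gm7367. Necap2, of clathrin-coated vesicles (chromosome 4, 141066512 to 141078357), had 3.07, 7.72 and 8.13 and B4galt7, of proteoglycan synthesis, 3.87, 5.99 and 8.93. In all 3 the high gate was the highest of the bezafibrate gates. Both control gates were above it for Necap2, with 11.1 and 9.27, and for B4galt7, with 11.7 and 9.05. Hnf4aos, antisense to the transcription factor gene Hnf4a, had 4.13, 6.78 and 9.99, while Hnf4a had 637.7, 686.2 and 694.7; the sources used here do not state whether counting used the strand. Tmod1, which caps actin filaments, was listed at 0 in the negative gate and had 17 reads in the high gate, with values of 0, 6.78 and 2.27. Its positive gate was thus above the high gate, and both control gates were higher still with 21.1 and 10.3. Among the lower genes, Prg4, the secreted lubricin (chromosome 1, 150449412 to 150466165), had 134.6, 77.7 and 58.1, 0.431-fold (0.385 to 0.483), and Hmgn5, a nucleosome-binding protein, 18.4, 9.46 and 5.196. Gng5, a G protein subunit, had 30.9, 15.6 and 13.9. Each of these was highest in the bezafibrate negative gate of all 5 libraries.

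Differences of near copies cannot be assigned to single genes. Mup19 had 207 reads in the negative gate and 0 in the high gate, and all words of its transcript occur in other Mup genes, which code for major urinary proteins. Mup17 was higher with 112.4, 149.6 and 220.9, 1.97-fold (1.81 to 2.14), and Mup2 lower with 1145, 893.8 and 588.0, 0.514-fold (0.495 to 0.533). All 17 Mup genes of the table summed to 11569.5, 10048 and 9387, 0.811-fold (0.803 to 0.820). Srp54c had 13.7, 12.3 and 2.93, yet its sum with Srp54a and Srp54b was 0.927-fold (0.779 to 1.10). Eno1b was higher with 116.0, 148.0 and 166.9 and Eno1 lower with 156.2, 70.1 and 90.5, and their sum was 0.946-fold (0.888 to 1.01). The provisional genes Gm14430, with 0 and 254 reads in the negative and high gates, Gm14434 and 0610010B08Rik summed to 1.07-fold (0.948 to 1.21). They were named after their values were seen, and the words that Gm14430 shares with other genes were not counted. Among abundant genes without these copies, Shb, an adaptor of receptor tyrosine kinases, had 95.2, 134.4 and 139.1, 1.46-fold (1.33 to 1.61). Tymp, thymidine phosphorylase, had 98.5, 130.8 and 144.2, 1.46-fold (1.33 to 1.61), but 41.2% of its words occur in the overlapping gene Sco2.

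Markers of other liver cells were low, and some were higher in the high gate. Summed over 11 sinusoidal endothelial genes in the table the values were 26.4, 29.8 and 43.8, of which the scavenger receptor Stab2 gave 12.7, 17.7 and 22.1. Summed over 11 stellate cell genes they were 37.3, 33.9 and 50.1. Reln was level with 29.5, 28.5 and 29.8, so other members carried the higher sum in the high gate. Over 9 Kupffer cell genes the values were 146.9, 115.7 and 123.4. The iron exporter Slc40a1, with 140.0, 109.2 and 111.5, carried the lower sum in the high gate. The other Kupffer cell genes together were higher there. Among them Clec4f, a defining gene of these cells, had 0.133, 0.473 and 1.73, values that rest on few reads. Over 6 cholangiocyte genes they were 40.8, 40.0 and 37.3, and over 3 erythroid and platelet genes 49.9, 38.0 and 44.2. T and NK cell, B cell and neutrophil genes each summed to under 3 in these 3 libraries. Those sums rest on the 2, 1 and 1 of their markers that were in the table. Beside them Alb had 48208 or more. Their part in the differences above was not tested.

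The difference between the outer gates was then set beside 2 comparisons that share no library with it. Across 8981 genes it had almost no relation to control positive minus control negative, with Pearson's r of -0.03 and Spearman's rho of -0.07, and -0.06 and -0.09 over 1157 genes with a mean of at least 100. It ran against bezafibrate positive minus control positive, with r of -0.31 and rho of -0.37, and -0.40 and -0.54 over the 1157 genes. These are descriptions across genes, which are not independent replicates. In that treatment comparison 446 genes were at least 2-fold higher, 4.97%, and 261 at least 2-fold lower, 2.91%. Of the 446, 333 lay below the all-gene median in high minus negative, 74.7%, their median was -0.21, and 35.2% were past 0.32 lower with 6.28% higher. Of the 261, 23.0% were past 0.32 higher and 7.66% lower, and their median was 0.16. The 4145 genes within 0.32 between treatments had a median of -0.01. Genes high under bezafibrate in the positive gate were thus on average lower in the high than in the negative gate. Within 5 classes of transcript length the 2-fold higher genes had medians between -0.29 and -0.10 and the 2-fold lower genes between 0.07 and 0.24.

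**Figure D5:**
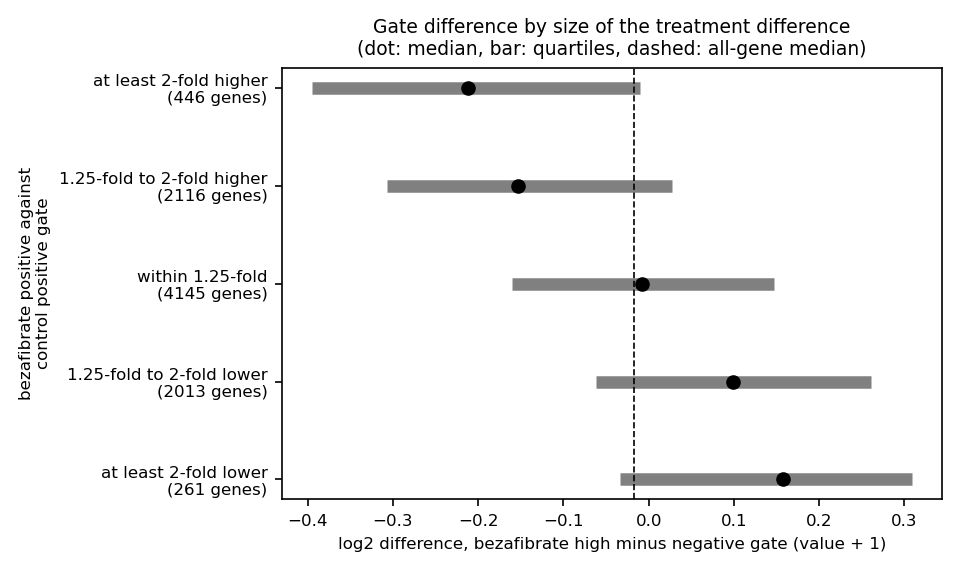
Median (dot) and quartiles (bar) of the log2 difference, bezafibrate high minus negative gate (x axis), for genes grouped by bezafibrate positive against control positive (y axis), which shares no library with it. The medians go from -0.21 for 446 genes at least 2-fold higher to 0.16 for 261 genes at least 2-fold lower; the dashed line is the all-gene median.

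Of the 40 lists, 27 were above all genes in the treatment comparison and below them between the outer gates, 6 were the reverse, 4 were above in both and 3 below in both. Relative to all genes, the respiratory chain had 0.87 in the treatment comparison and -0.28 between the outer gates, acute phase genes 1.06 and -0.28, secreted proteins 0.68 and -0.28, and omega-oxidation 0.79 and -0.17. Immediate early genes had -0.49 and 0.25, mitochondrial aminoacyl-tRNA synthetases -0.31 and 0.19, and nuclear long non-coding RNAs -0.26 and 0.18. The peroxisomal list had 0.29 and -0.15. Small non-coding RNAs were below all genes in both, at -1.24 and -0.46, and histones at -0.11 and -0.12. Interferon response genes were above in both at 0.34 and 0.07, and so were clock genes at 0.28 and 0.04, iron genes at 0.26 and 0.02 and peroxins at 0.03 and 0.10. With only genes of a mean of at least 20 kept, the interferon list was at -0.07 between the outer gates, over 8 genes. Rn45s, at 99961, 174815 and 123019 in the bezafibrate gates, was lowest where the bezafibrate-raised genes were highest, and its part in this relation was not tested.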

How the data were processed

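RNA was measured in 5 libraries, 1 per group, with groups taken from the labels. Cells' total RNA was taken with a kit named for FFPE tissue, depleted of ribosomal RNA and made into directional libraries for paired-end sequencing, per the labels' protocols. The submitters' processing notes name edgeR, RSEM, Bowtie2 and Trimmomatic 0.36 and the build mm10, without roles, and no source used here names the annotation. The authors deposited 1 table of normalised read counts (a signal that is never negative) for 13966 genes. Each value divided by the smallest one above 0 in its library was a whole read count for 100% of values at a tolerance of 0.001 reads. The divisors matched edgeR's TMM effective library sizes within a relative difference of 4.27e-07, so the deposited signal is a CPM on TMM-scaled library sizes.

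From this signal, log2(value + 1) differences were computed for genes with a mean of at least 5, with no test, since each group has 1 library. Ratios have exact Clopper-Pearson 95% intervals on the recovered reads. Reads carry no molecular identifiers, so these cover counting error only. Lists are described by counts and medians. Transcript lengths and coordinates came from GENCODE for GRCm38, also called mm10, where 99.2% of the genes analysed matched, and promoter windows from RefSeq. Words of 31 bases shared between transcripts were counted as a measure of near copies. Named genes were the 10 with the largest positive and 10 with the largest negative difference, the 8 of each sign with a mean of at least 100, and per list the 2 most abundant per kilobase and the 2 most extreme. Provisional names, pseudogenes, small RNAs and Rn45s were left out of the first groups. Other list members were chosen to show a step of a pathway, with values in view. Some list members the rule names are counted in their lists but not reported here. The gates, lists and genes were chosen with earlier results of these data known. The name patterns of the ribosomal protein and small RNA lists were corrected after values were seen (Rpsa added, the kinase-like Rps6kl1 and microRNA host genes removed). The steps were tested on simulated data. Alternatives were other scalings, pseudocounts and filters, and an additive edgeR 4.0.16 fit in R 4.3.3. The rest ran in Python 3.11.15 with pandas 2.3.3, numpy 2.4.6, scipy 1.17.1 and matplotlib 3.10.9.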

Additional observations from a re-analysis of the deposited data

How the results depend on the processing

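With 1 library per gate, every value describes these libraries, and a difference between gates cannot be told apart from one between sorts or animals. Depth limits low genes: most differences past 2-fold rest on few reads. No paired analysis was possible because each group has 1 library. The medians of the mitochondrial, peroxisomal and omega-oxidation lists relative to all genes kept their sign under every scaling, pseudocount and filter tried, and lay between -0.14 and -0.10, -0.18 and -0.15, and -0.20 and -0.16. Of 40 lists, 0 changed sides of the all-gene median with equal column totals, RLE, TMM or other pseudocounts. With totals equal without Rn45s 1 did, hepatocyte transcription factors. Without a filter 3 did: cell cycle, glycolysis and integrated stress response. With a filter at 20, which left 39 lists, 2 did: hypoxia response and interferon response.

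Counts moved more. With equal column totals 1321 genes were past 0.32 higher and the median over all genes was 0.046. With totals equal without Rn45s, 1700 were higher and 585 lower, 16 and 9 at 2-fold, and the median was 0.093. With a pseudocount of 5, 496 were past 0.32 higher, and 1 was higher and 8 lower at 2-fold. With no filter, 2114 were higher and 2046 lower, 78 and 55 at 2-fold. With a filter at 20, which keeps fewer genes, 335 were higher and 510 lower, 2 and 5 at 2-fold, and Pearson's r with the control gates was 0.019. The cause was not tested. RLE scaling and an additive edgeR quasi-likelihood fit of gate and treatment over the 5 libraries were chosen after seeing the data. With 1 residual degree of freedom, its error is how far gate differences change with treatment, not the spread of replicates. In this fit the high gate has 1 library, set against a negative level fitted with the control libraries as well. Counts of genes called by it are therefore not given.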
